A study of Mus musculus with 32 samples.

Results

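The genes described here build the entry route of the secretory pathway: they carry new proteins into the endoplasmic reticulum (ER), cut off their signal peptides and attach N-linked sugars. They were chosen by gene symbol, as a list of translocation and N-glycosylation genes, with earlier results of these data known. All 38 were found among the 20234 genes of the deposited table. By role, 5 belong to the translocon, 7 to the signal recognition particle (SRP) and its receptor, 5 to signal peptidase, 4 to the translocon-associated protein complex (TRAP), 9 to oligosaccharyltransferase and 8 to the enzymes that build the lipid-linked oligosaccharide. All are annotated as protein-coding, each at 1 locus, and all passed the filter on low counts in every comparison.

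The cells were MEFs, fibroblasts grown from mouse embryos, whose genotype, strain and embryo age the labels leave out. Cells of the control group received no thapsigargin, those of the next 2 groups received it for 1 h or 16 h, and those of the 4th were exposed for 16 h with a PERK inhibitor present over the last 4 h. Thapsigargin blocks the pump that fills the ER with calcium, and PERK is the ER-resident kinase that phosphorylates the initiation factor eIF2 when unfolded proteins accumulate. The labels give 4 replicates per condition, and from each of the 16 samples a library of cytosolic RNA, also labelled as input, and a library of polysome RNA, the mRNA in gradient fractions with more than 4 ribosomes, were sequenced. No label names the inhibitor, a dose or a solvent control, and inhibitor without thapsigargin is not analysed here.

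Most secreted and membrane proteins are recognised by SRP as their signal sequence leaves the ribosome. SRP hands the ribosome through its receptor to the Sec61 channel, signal peptidase removes the signal sequence, and oligosaccharyltransferase moves a preassembled sugar tree from the lipid dolichol onto asparagine residues of the growing chain. Under ER stress the transcription factors ATF6 and XBP1 are known to raise many genes of this route, while PERK lowers the initiation of translation on most mRNAs and favours that of a few, such as Atf4.

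Library totals were 19317276 to 34966246 counts in cytosolic RNA and 21160092 to 41776027 in polysome RNA. Levels are given as CPM, edgeR's counts per library scaled with TMM factors over the 32 libraries. The cytosolic and polysome changes were fitted with factors computed within each kind of RNA, and a change read off the CPM therefore differs from the fitted one by a constant: 0.122 in cytosolic and 0.073 in polysome RNA at 16 h against control, 0.013 and -0.053 at 1 h, and -0.053 and -0.029 for the inhibitor against 16 h (log2, CPM minus fit). Statements on overlap are on the CPM scale, and how many of all genes tested lacked overlap was not counted. Polysome RNA divided by cytosolic RNA is called translational efficiency. With this scaling a drop in polysomes common to all mRNAs cannot be seen, and fewer cells and less RNA per cell cannot be told apart. A gene was called higher or lower when the Benjamini-Hochberg adjusted p of edgeR's quasi-likelihood test, over all genes tested, was under 0.05. Nothing in the labels says that replicates came from separate cultures, and the p-values therefore rest on a sample-to-sample spread that may be technical only.

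The labels were checked against a panel of 6 genes outside the list: Ddit3, Hspa5, Atf4, Ppp1r15a, Dnajb9 and Herpud1. Ddit3, which encodes the stress transcription factor CHOP, stood at 13.6 ± 2.22 CPM in control cytosolic RNA, 92.5 ± 5.72 at 1 h, 483 ± 43.5 at 16 h and 44.9 ± 3.05 with the inhibitor (SD, n = 4). Atf4 in polysome RNA stood at 118.6 ± 2.51, 1003 ± 23.3, 1304 ± 12.5 and 64.2 ± 2.98 CPM in the same order. At 1 h Ddit3, Hspa5, Atf4 and Ppp1r15a were called higher in both kinds of RNA, but the other panel genes were not. Dnajb9 was not called in cytosolic RNA (-0.04 ± 0.0782, log2, SE) and was lower in polysome RNA (-0.90 ± 0.0679). Herpud1 was higher in cytosolic RNA (1.09 ± 0.0416) and lower in polysome RNA (-0.48 ± 0.0338). Polysome RNA divided by cytosolic RNA was lower for both at 1 h and 16 h. Of 10 fibroblast markers, 9 had at least 1 CPM in cytosolic RNA of each condition, and Dcn, named after its level was seen, was below it. Summed over that list, the level was 7703 to 10510 CPM in control libraries, 17190 to 20710 at 1 h, 4043 to 4701 at 16 h and 3867 to 4420 with the inhibitor. The summed markers of epithelium (6 genes), endothelium (4), leukocytes (5) and muscle (4) reached at most 2.35, 1.60, 2.13 and 0.302 CPM in any cytosolic library. The summed neural markers (5 genes) stood at 94.06 to 97.44 CPM in control, 84.89 to 97.96 at 1 h, 36.62 to 42.41 at 16 h and 41.59 to 49.29 with the inhibitor. Of these 5 genes, 3 had a mean of at least 1 CPM in control cytosolic RNA and 2 in each other condition. The fibroblast and neural sums moved with the conditions, and their part in the results was not tested.

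In control cells most members had a higher ratio of polysome to cytosolic RNA than the median of all genes tested, while 13 of the 38 lay below it. This comparison was not matched for coding length. The median log2 ratio of polysome to cytosolic RNA was 0.87 for the 38 members and 0.04 for the 12561 genes tested, with members running from -2.16 to 1.98. At 1 h of thapsigargin the medians were 0.02 for members and 0.01 for all genes, and at 16 h 0.12 and 0.03. With the PERK inhibitor the members' median was 0.62, against -0.05 for all genes. Ddost and Rpn2, both oligosaccharyltransferase subunits, had control ratios of 1.98 ± 0.0644 and 1.82 ± 0.0345 (log2, SD, n = 4), and Alg3, a mannosyltransferase of the lipid-linked oligosaccharide, 1.85 ± 0.0790. The lowest control ratios were those of 3 small proteins' mRNAs, Sec61g at -2.16 ± 0.318, Srp19 at -1.69 ± 0.218 and Sec61b at -1.38 ± 0.326.

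**Figure D1:**
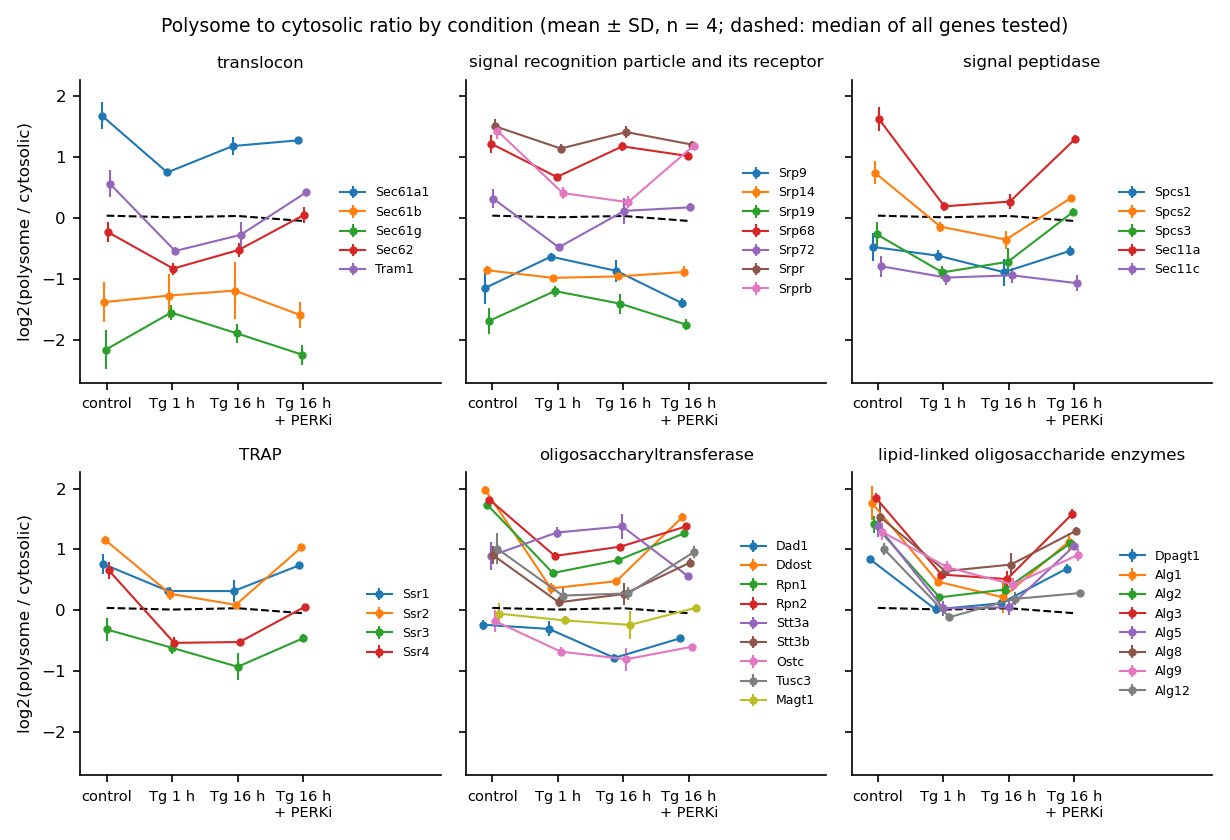
Log2 ratio of polysome to cytosolic RNA (y axis) in the 4 conditions (x axis; Tg, thapsigargin; PERKi, PERK inhibitor) for the members of each module, points being means and bars SD over 4 samples, with the median of all genes tested dashed. The 8 lipid-linked oligosaccharide enzymes start at 0.84 or above in control cells and lie between -0.11 and 0.75 at 1 h and 16 h, while Stt3a goes from 0.90 in control cells to 1.38 at 16 h.

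After 1 h of thapsigargin the cytosolic RNA of most members was lower than in control cells. Of 38 members 30 fell and 1 rose, where 28.1% of the 12366 genes tested were called lower and 28.1% higher. The median log2 change was -0.55 for members and 0.00 for all genes tested. The member that rose was Srp68, and 5 fell by more than 2-fold: Dad1, Spcs1, Ostc, Ssr3 and Spcs3. Levels of the 4 control and the 4 treated libraries did not overlap for 29 members. Neither this count nor that of falls beyond 2-fold was made over all genes.

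At 16 h the cytosolic picture was mostly the opposite. The 29 members that rose stand against a background of 37.9% of genes called higher, and the 7 that fell against 39.4% called lower. The median change was 0.43 for members and -0.01 for all genes, and groups did not overlap for 33 members (32 with factors within cytosolic RNA). Those that fell were Sec62, Spcs1, Ssr4, Dad1, Tusc3, Dpagt1 and Alg9, and Spcs3 and Alg1 were not called. Set directly against 1 h, 36 members were higher at 16 h and 1, Tusc3, was lower, against a background of 37.7% called higher and 37.7% lower. The median of that difference was 0.99 for members and 0.01 for all genes, and 37 members did not overlap. Neither count of members without overlap was made over all genes. The comparisons of both times with control use the same control libraries.

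In polysome RNA at 1 h, 32 members fell, 25 of them by more than 2-fold, and 4 rose, against 38.5% of 12065 genes called lower and 41.1% called higher. The members' median log2 change was -1.27 and that of all genes 0.03, with no overlap between groups for 34 members (35 with factors within polysome RNA). Neither falls beyond 2-fold nor lack of overlap was counted over all genes. The 4 that rose were Srp9, Srp19, Srp68 and Stt3a, of which Srp68 was not called with RLE factors (log2 change 0.06, adjusted p = 0.184, edgeR's quasi-likelihood test), nor without control sample 2 or 1 h sample 1 (0.099 to 0.104). At 16 h 22 members were below control in polysome RNA and 14 above it, where 42.9% and 42.3% of genes were called lower and higher. The medians were -0.26 for members and -0.01 for all genes. With the trend of counts on coding length removed in each library, the split at 16 h was 18 lower and 18 higher. With that setting 10228 of all 12065 genes were called in either direction. From 1 h to 16 h, 35 members rose on polysomes and 1 fell, against 38.4% higher and 40.0% lower among all genes.

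Translational efficiency of the members was lower at both times. At 1 h 28 members fell and 4 rose, against 34.4% of 12561 genes called lower and 33.4% called higher. At 16 h 27 fell and 3 rose, against 33.0% lower and 31.1% higher. The median log2 changes were -0.77 at 1 h and -0.63 at 16 h, beside -0.01 and -0.04 for all genes tested. Efficiency fell by more than 2-fold for 11 members at 1 h and for 10 at 16 h, and such falls were not counted over all genes. Between 1 h and 16 h it differed for few members: 8 were higher and 4 lower at 16 h, where 14.5% of genes were called higher and 13.6% lower. Without the filter on low counts that last split was 7 higher and 2 lower, and with the coding-length trend removed 9 and 2. Among all genes, 3124 of 17000 were called in either direction without the filter and 3103 of 12561 with the trend removed. The chart of changes by member shows the cytosolic values scattered to both sides at 16 h and the efficiency values mostly on the low side at both times.

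**Figure D2:**
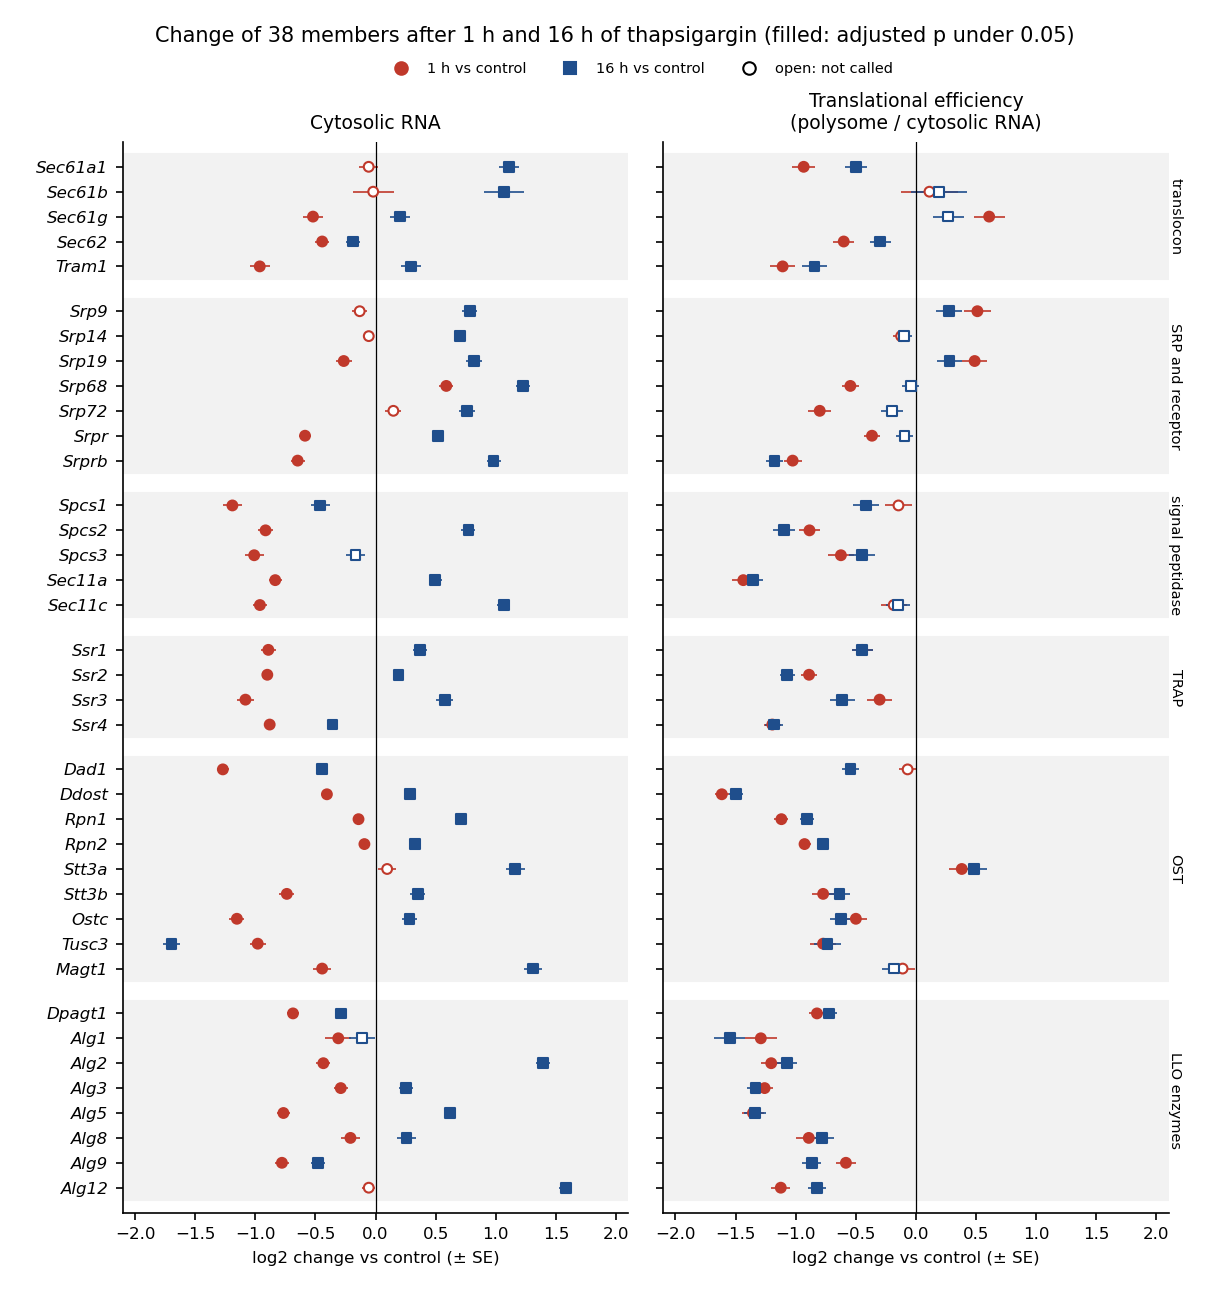
Log2 change against control (x axis, points with SE bars) of each of the 38 members (y axis, grouped by module; SRP, signal recognition particle; OST, oligosaccharyltransferase; LLO, lipid-linked oligosaccharide) in cytosolic RNA and in translational efficiency, at 1 h (circles) and 16 h (squares), filled where the adjusted p is under 0.05. In cytosolic RNA 30 members are called lower at 1 h and 29 higher at 16 h, whereas in translational efficiency 28 and 27 are called lower.

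With the PERK inhibitor over the last 4 h, translational efficiency was higher than at 16 h without it for most members. It rose for 25 and fell for 5, against 26.4% of genes called higher and 33.7% called lower, with a median of 0.45 for members and -0.09 for all genes. Polysome RNA rose for 26 members and fell for 6, against 42.1% higher and 40.7% lower, with medians of 0.55 and 0.04. Cytosolic RNA rose for 21 and fell for 11, against 42.2% higher and 32.5% lower, with medians of 0.21 and 0.10. With the coding-length trend removed, the cytosolic split was 13 higher and 14 lower. With that setting 8807 of all 12366 genes were called in either direction. The 16 h libraries serve here as the reference and also enter the comparisons with control.

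The translocon forms the channel through which nascent chains pass. Sec61a1 (chromosome 6 from 88503579 to 88518905, GRCm38) encodes the channel's pore-forming subunit. Its control cytosolic libraries held 562, 774, 695 and 704 CPM, those at 1 h 673, 636, 694 and 651, those at 16 h 1458, 1609, 1706 and 1662 and those with the inhibitor 1421, 1349.5, 1448 and 1335. In polysome RNA the values were 2242, 2176, 2023 and 2302 CPM in control, 1111, 1127, 1143 and 1082 at 1 h, 3823, 3557, 3498 and 3732 at 16 h and 3495, 3366, 3328 and 3272 with the inhibitor. Control and 1 h overlapped in cytosolic RNA, whereas on polysomes all 1 h libraries lay below and all 16 h libraries above control. The cytosolic rise at 16 h was 1.11 ± 0.0824 on the log2 scale (SE), with an adjusted p of 1.59e-09 by edgeR's quasi-likelihood test, and the efficiency changed by -0.93 ± 0.0931 at 1 h and -0.50 ± 0.0929 at 16 h.

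Tram1 (chromosome 1 from 13564698 to 13589910) encodes a membrane protein beside the channel that contacts entering chains. Its cytosolic level was 377, 285, 312 and 312 CPM in control, 154, 177, 155 and 179.8 at 1 h, 489.7, 406, 397 and 422 at 16 h and 616, 697, 614 and 692 with the inhibitor. Its polysome level was 473, 463, 542 and 426 CPM in control, 111, 114, 105 and 126.6 at 1 h, 335, 369, 379.5 and 330.1 at 16 h and 835, 902, 862 and 906 with the inhibitor. Polysome libraries at 16 h lay below every control library although the cytosolic ones lay above on the CPM scale (with factors within cytosolic RNA they overlapped control), and those with the inhibitor were the highest of all. The polysome call at 16 h, -0.50 ± 0.0660, was lost with the length trend removed (-0.12). Efficiency fell by 1.11 ± 0.105 (log2, SE) at 1 h, the largest fall in the module (adjusted p = 2.39e-08, edgeR's quasi-likelihood test), and rose by 0.70 ± 0.104 with the inhibitor.

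Sec61b and Sec61g encode the small tail-anchored subunits of the channel, and Sec62 a partner used by proteins that enter after translation. Sec61b was measured with the widest error of the list, its cytosolic change at 16 h being 1.07 ± 0.169 (SE), and none of its efficiency changes was called. Sec61g fell at 1 h and rose at 16 h in cytosolic RNA (-0.52 ± 0.0841 and 0.21 ± 0.0834), the call at 16 h being lost without control sample 2 or 3 or 16 h sample 1 (0.145 to 0.176), and its efficiency rose by 0.61 ± 0.130 at 1 h (-0.02 with the coding-length trend removed). Sec62 was lower at both times in cytosolic RNA, with -0.44 ± 0.0583 and -0.19 ± 0.0580, and in efficiency, with -0.60 ± 0.0887 and -0.30 ± 0.0881, the last of which was 0.02 and not called with the length trend removed.

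SRP, a ribonucleoprotein, binds signal sequences, and its receptor sits in the ER membrane. All 7 of these members rose in cytosolic RNA at 16 h, where 37.9% of all genes were called higher, from 0.52 for Srpr to 1.23 for Srp68. Srp68 (chromosome 11 from 116245166 to 116274217) encodes one of the large SRP proteins, and was alone among the 38 in rising at both times in cytosolic RNA. Its cytosolic libraries read 81.8, 97.5, 98.1 and 95.05 CPM in control, 141.6, 141, 144 and 138 at 1 h, 226, 235, 242 and 246 at 16 h and 115.8, 119.3, 117 and 109.6 with the inhibitor. Its polysome libraries read 220.3, 211, 212 and 223 CPM in control, 232, 224, 226 and 221 at 1 h, 548, 520.5, 521 and 558 at 16 h and 242, 235, 225 and 234 with the inhibitor. The groups followed one another without overlap from control to 1 h to 16 h in cytosolic RNA, and the inhibitor libraries fell back between control and 1 h. The changes were 0.59 ± 0.0584 at 1 h, 1.23 ± 0.0588 at 16 h and -0.99 ± 0.0583 with the inhibitor (log2, SE), the last with an adjusted p of 1.04e-10 by edgeR's quasi-likelihood test. Srp72, its binding partner in the particle, rose by 0.76 ± 0.0667 at 16 h and fell by 0.54 ± 0.0664 with the inhibitor.

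In the annotation 888 exonic bases of Srprb (chromosome 9 from 103188032 to 103202137) are shared with Gm20425 on the same strand. Reads there therefore cannot be assigned with certainty. Srprb encodes the membrane-anchored beta subunit of the SRP receptor. In cytosolic RNA it stood at 218, 255, 244 and 246 CPM in control, 147, 149.9, 165 and 159 at 1 h, 486, 518, 551 and 516 at 16 h and 581, 591, 605 and 572 with the inhibitor. On polysomes it stood at 673, 651, 613 and 671 CPM in control, 199, 216, 201 and 209 at 1 h, 626, 601, 611 and 643 at 16 h and 1398, 1351, 1318 and 1299 with the inhibitor. The cytosolic level at 16 h was entirely above control while the polysome levels overlapped, and polysome RNA with the inhibitor exceeded every other group. The polysome change at 16 h was -0.14 ± 0.0430 and turned to 0.39 with the length trend removed. Efficiency fell by 1.03 ± 0.0749 at 1 h (adjusted p = 6.71e-10, edgeR's quasi-likelihood test) and by 1.18 ± 0.0745 at 16 h, and rose by 0.93 ± 0.0742 with the inhibitor. Srpr, the alpha subunit that meets SRP, changed less in efficiency: -0.37 ± 0.0696 at 1 h, -0.09 ± 0.0695 at 16 h (not called) and -0.21 ± 0.0695 with the inhibitor, the last being 0.07 with the length trend removed and not called without 16 h sample 2 or 3 or inhibitor sample 2 (-0.174 to -0.168).

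The small SRP proteins showed another pattern. Srp9 and Srp14 form the part of the particle that slows elongation, and Srp19 takes part in assembling it. Efficiency of Srp9 rose by 0.51 ± 0.110 at 1 h and 0.28 ± 0.109 at 16 h and fell by 0.53 ± 0.107 with the inhibitor. That of Srp19 rose by 0.49 ± 0.105 and 0.28 ± 0.102 and fell by 0.34 ± 0.0996. For Srp14 none of the 3 was called, with -0.12 ± 0.0647, -0.10 ± 0.0635 and 0.07 ± 0.0624. The 16 h and control samples of Srp9 and Srp19 overlapped in efficiency. For Srp9 the call at 16 h was lost without control sample 1 or 4 or 16 h sample 2, 3 or 4 (log2 changes from 0.16 to 0.27), and for Srp19 without control sample 1 or 16 h sample 2 or 3 (0.17 to 0.25). With the length trend removed, the Srp9 changes were 0.07, 0.14 and -0.24 and none was called.

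Signal peptidase cuts the signal sequence from the entering chain. Its 5 members fell together in cytosolic RNA at 1 h, from -0.83 (Sec11a) to -1.19 (Spcs1) on the log2 scale, beside 28.1% of all genes called lower. All 5 were higher at 16 h than at 1 h, beside 37.7% of all genes called higher. Against control at 16 h, Spcs2, Sec11a and Sec11c were higher, Spcs1 was lower and Spcs3 was not called. Spcs1, Spcs2 and Spcs3 encode accessory subunits, whereas Sec11a and Sec11c encode alternative catalytic subunits.

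Sec11c (chromosome 18 from 65800515 to 65817684) had a lower level per kilobase of coding sequence than its relative Sec11a, 38.6 ± 2.36 against 151 ± 13.03 CPM per kb in control cytosolic RNA (SD, n = 4). Its cytosolic libraries held 24.2, 22.1, 21.5 and 21.2 CPM in control, 11.6, 11.2, 11.9 and 11.4 at 1 h, 53.0, 51.3, 47.5 and 50.6 at 16 h and 84.5, 81.7, 76.0 and 86.1 with the inhibitor. Its polysome libraries held 13.001, 12.6, 14.7 and 11.2 CPM in control, 5.93, 6.30, 5.86 and 5.29 at 1 h, 25.1, 29.4, 26.0 and 25.0 at 16 h and 37.0, 36.7, 40.8 and 41.97 with the inhibitor. No groups of Sec11c overlapped in either kind of RNA, with 1 h the lowest and the inhibitor the highest. The difference between 16 h and 1 h in cytosolic RNA, 2.03 ± 0.0560 (log2, SE), was the largest of the 38 members and is given as a description, since the gene was named for opposite calls at these times. With the length trend removed, the polysome change with the inhibitor was -0.06 and not called, in place of 0.60 ± 0.0778. Its efficiency was called in none of the comparisons.

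Sec11a (chromosome 7 from 80904889 to 80947780) encodes the other catalytic subunit. Its cytosolic values were 90.7, 75.4, 76.2 and 81.0 CPM in control, 45.6, 45.9, 46.4 and 44.9 at 1 h, 134.02, 119.8, 117.8 and 124.3 at 16 h and 117.6, 129, 118.5 and 129 with the inhibitor. The polysome values were 237, 257, 270.3 and 235 CPM in control, 53.0, 51.3, 50.2 and 54.6 at 1 h, 147, 152, 156 and 143.1 at 16 h and 300.4, 307, 306 and 306 with the inhibitor. Polysome RNA at 16 h was thus below every control library although cytosolic RNA was above. Efficiency fell by 1.44 ± 0.0913 at 1 h (adjusted p = 1.01e-10, edgeR's quasi-likelihood test) and by 1.36 ± 0.0893 at 16 h, and rose by 1.03 ± 0.0888 with the inhibitor. In the annotation 163 exonic bases of Sec11a are shared with Nmb on the same strand, so reads there cannot be assigned with certainty.

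TRAP is a complex of 4 membrane proteins bound to the Sec61 channel that helps certain chains to enter. All 4 members fell in cytosolic RNA at 1 h, with log2 changes from -1.08 to -0.88, where 28.1% of all genes were called lower. In efficiency all 4 fell at both times, beside 34.4% of all genes called lower at 1 h and 33.0% at 16 h. With the length trend removed the efficiency calls of Ssr1 (0.04 at 1 h and 0.08 at 16 h) and Ssr3 (-0.08 and -0.25) were lost. Without control sample 3 that of Ssr3 at 1 h was also lost, with -0.23. At 16 h Ssr1, Ssr2 and Ssr3 rose in cytosolic RNA and Ssr4 fell. With the inhibitor all 4 rose in cytosolic RNA, in polysome RNA and in efficiency, against 42.2%, 42.1% and 26.4% of all genes. With the length trend removed, the efficiency changes with the inhibitor of Ssr1 (-0.01) and Ssr3 (0.12) and the cytosolic change of Ssr2 (0.12) were not called.

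Ssr3 (chromosome 3 from 65379655 to 65392623) had the highest cytosolic level of all members per kilobase of coding sequence, 2163 ± 218 CPM per kb in control (SD, n = 4). Its cytosolic libraries read 1371, 1085, 1172 and 1173 CPM in control, 523, 600.1, 550.0 and 615 at 1 h, 2195, 1854, 1814 and 1914 at 16 h and 2625, 2949, 2648 and 3032 with the inhibitor. Its polysome libraries read 996, 940.5, 1099.9 and 832 CPM in control, 374, 364, 347 and 408 at 1 h, 952, 1083, 1100.2 and 954 at 16 h and 1937, 2059, 2042 and 2149 with the inhibitor. Polysome RNA at 16 h overlapped control, while cytosolic RNA did not. The cytosolic rise at 16 h was 0.57 ± 0.0725 (log2, SE; adjusted p = 1.47e-06, edgeR's quasi-likelihood test), and the polysome change was 0.01 ± 0.0711 (0.42, and called, with the length trend removed).

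Ssr4 (chromosome X from 73787028 to 73790830) was the member of TRAP whose efficiency fell most. Cytosolic libraries held 129, 127.5, 136.7 and 135 CPM in control, 70.4, 77.0, 70.4 and 71.8 at 1 h, 105.8, 112.9 and 120.0 in 3 libraries and an intermediate value in the other at 16 h and 153, 155, 152 and 150.2 with the inhibitor. Polysome libraries held 199, 230.0, 196 and 211 CPM in control, 49.5, 49.7, 46.6 and 54.2 at 1 h, 76.8, 76.4, 80.5 and 78.9 at 16 h and 156, 163, 163 and 155 with the inhibitor. On polysomes both stressed groups lay far below control, and the inhibitor group lay between 16 h and control. Efficiency fell by 1.19 ± 0.0718 at 1 h (adjusted p = 4.71e-11, edgeR's quasi-likelihood test) and by 1.18 ± 0.0709 at 16 h.

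**Figure D3:**
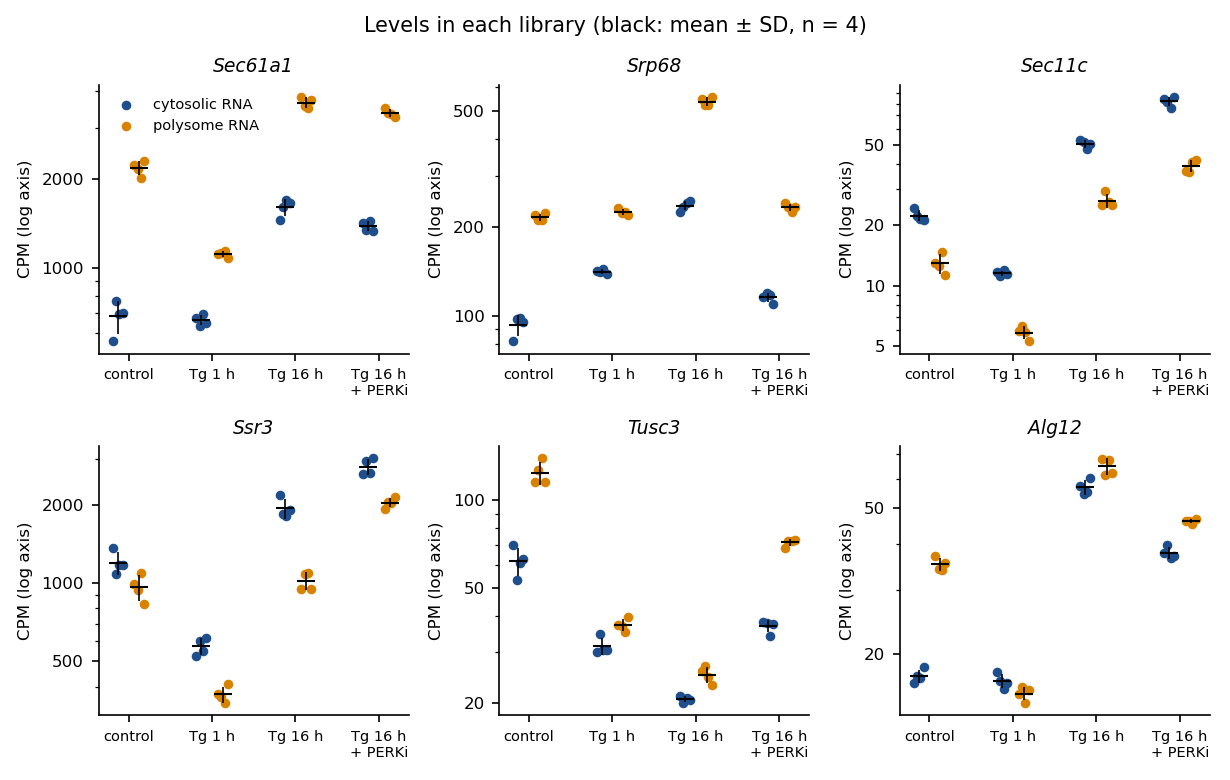
CPM (y axis, log scale) in each of 4 libraries per condition (x axis; Tg, thapsigargin; PERKi, PERK inhibitor), cytosolic RNA in blue and polysome RNA in orange with mean and SD in black, for the member of each module with the largest called cytosolic change at 16 h. Sec61a1, Srp68, Sec11c, Ssr3 and Alg12 are higher at 16 h than in control in cytosolic RNA, and Tusc3 is lower.

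Oligosaccharyltransferase transfers the finished sugar tree to the protein. Stt3a and Stt3b encode its alternative catalytic subunits, Ddost, Rpn1, Rpn2 and Dad1 shared subunits, Ostc a subunit of the form that works at the channel, and Tusc3 and Magt1 oxidoreductase subunits of the other form. In cytosolic RNA 8 of these 9 fell at 1 h, the exception being Stt3a, and 7 rose at 16 h, the exceptions being Dad1 and Tusc3, which fell, beside 28.1% of all genes called lower at 1 h and 37.9% called higher at 16 h. The Rpn2 call at 1 h, -0.09 ± 0.0351, was lost without control sample 3 or 4 or 1 h sample 1, 2 or 4 (-0.094 to -0.073). In efficiency 6 fell and 1, Stt3a, rose at 1 h, and 7 fell and 1, Stt3a, rose at 16 h. Among all genes 34.4% were called lower and 33.4% higher in efficiency at 1 h, and 33.0% and 31.1% at 16 h.

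Ddost (chromosome 4 from 138304730 to 138312628) had the largest fall in efficiency of the 38 members at 1 h. Its cytosolic libraries read 379, 391, 391 and 405 CPM in control, 286, 303, 313 and 292 at 1 h, 519, 502, 529 and 531 at 16 h and 473, 511, 486 and 462 with the inhibitor. Its polysome libraries read 1576, 1515, 1553 and 1515 CPM in control, 376, 380.0, 375 and 403 at 1 h, 730.4, 687, 757 and 729 at 16 h and 1402, 1382, 1397 and 1381 with the inhibitor. The polysome groups followed the order 1 h, 16 h, inhibitor, control without overlap. Efficiency fell by 1.61 ± 0.0593 at 1 h (log2, SE; adjusted p = 8.03e-14, edgeR's quasi-likelihood test) and by 1.50 ± 0.0591 at 16 h, and rose by 1.05 ± 0.0590 with the inhibitor.

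Stt3a (chromosome 9 from 36729344 to 36767679), the catalytic subunit of the form that glycosylates chains as they enter, rose on polysomes. In cytosolic RNA it stood at 668, 500.3, 543 and 548 CPM in control, 566, 639.6, 594 and 636 at 1 h, 1566, 1270.4, 1309.9 and 1352 at 16 h and 857, 991, 863 and 934 with the inhibitor. On polysomes it stood at 1008, 1009, 1193 and 989 CPM in control, 1466, 1482, 1366 and 1598 at 1 h, 3422, 3687, 3885 and 3294 at 16 h and 1304, 1393, 1322 and 1354 with the inhibitor. The polysome groups at 1 h and 16 h lay above all control libraries, the latter by 1.69 ± 0.0610 on the log2 scale. Efficiency rose by 0.38 ± 0.106 at 1 h (0.20 and not called with the length trend removed) and 0.48 ± 0.106 at 16 h, where single samples overlapped, and fell by 0.82 ± 0.106 with the inhibitor (adjusted p = 2.07e-06, edgeR's quasi-likelihood test).

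Stt3b (chromosome 9 from 115242581 to 115310421), the catalytic subunit that also acts on sites passed over during entry, had a lower level at 1 h. Cytosolic libraries held 449, 367, 398 and 402 CPM in control, 228, 261, 234 and 255 at 1 h, 621, 516, 549 and 555 at 16 h and 503, 571, 510.4 and 557 with the inhibitor. Polysome libraries held 763, 757, 809 and 694 CPM in control, 268, 273, 243 and 288 at 1 h, 668, 699.6, 734 and 601 at 16 h and 899, 935, 925 and 924 with the inhibitor. The cytosolic rise at 16 h, 0.35 ± 0.0635, came with a polysome change of -0.24 ± 0.0554, and the polysome groups overlapped on the CPM scale, though not with factors within polysome RNA.

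The ratio of Stt3a to Stt3b, taken within each library, was followed directly. Its log2 value was 0.48 ± 0.0620 in control cytosolic libraries, 1.32 ± 0.0220 at 1 h, 1.29 ± 0.0330 at 16 h and 0.77 ± 0.0200 with the inhibitor. In polysome RNA it was 0.47 ± 0.0770, 2.46 ± 0.0210, 2.40 ± 0.0400 and 0.55 ± 0.0250. The polysome ratio was 3.98-fold higher at 1 h than in control, 3.81-fold higher at 16 h, and 3.63-fold lower with the inhibitor than at 16 h. Each of these differences had a two-sided exact permutation p of 0.0286, the smallest that 4 against 4 libraries can give, and 0.0312 after Benjamini-Hochberg adjustment over 24 tests. The ratio at 16 h against 1 h did not pass, with differences of -0.02 in cytosolic RNA (adjusted p = 0.286) and -0.06 in polysome RNA (adjusted p = 0.0894) by the same exact permutation test.

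Tusc3 (chromosome 8 from 39005845 to 39165114) was the only one of the 38 members to fall further between 1 h and 16 h in cytosolic RNA. It stood at 70.2, 53.2, 60.8 and 62.6 CPM in control, 30.2, 34.8, 30.6 and 30.5 at 1 h, 21.3, 20.1, 20.8 and 20.5 at 16 h and 38.2, 37.8, 34.2 and 37.6 with the inhibitor. On polysomes it stood at 115.4, 127.3, 139.7 and 115.5 CPM in control, 37.1, 36.9, 35.3 and 39.8 at 1 h, 25.8, 26.9, 24.7 and 23.1 at 16 h and 68.6, 72.6, 72.6 and 72.8 with the inhibitor. All stressed libraries lay below control, and 16 h was the lowest group in both kinds of RNA, while 1 h and inhibitor libraries overlapped in cytosolic RNA. Against control, the change at 16 h was -1.70 ± 0.0680 in cytosolic RNA (adjusted p = 4.09e-13, edgeR's quasi-likelihood test) and -2.38 ± 0.0672 in polysome RNA, and the inhibitor raised them by 0.89 and 1.54.

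Magt1 (chromosome X from 105968084 to 106011906), which encodes the alternative to Tusc3 in the same place of the enzyme, moved in the opposite direction at 16 h. Its cytosolic libraries read 192, 153, 169 and 170.3 CPM in control, 118.7, 138, 116.3 and 135 at 1 h, 521, 431, 432 and 458 at 16 h and 400.5, 448, 402 and 452 with the inhibitor. Its polysome libraries read 164, 166, 177 and 151 CPM in control, 113.01, 117, 102 and 120.2 at 1 h, 369.7, 401, 431 and 358 at 16 h and 412, 459, 436 and 446 with the inhibitor. At 16 h all libraries of both kinds were above control, by 1.31 ± 0.0744 and 1.17 ± 0.0602 on the log2 scale, and at 1 h they were below it, although the polysome call at 1 h was lost with the length trend removed (-0.06). The ratio of Magt1 to Tusc3 in cytosolic RNA was 2.78 in control, 4.02 at 1 h, 22.2 at 16 h and 11.5 with the inhibitor (geometric means of 4 libraries). The 7.99-fold difference between 16 h and control, and all others of this pair, had a two-sided exact permutation p of 0.0286 (adjusted p = 0.0312).

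For signal peptidase, the ratio of Sec11c to Sec11a was compared in the same way. In cytosolic RNA it was 0.275 in control, 0.252 at 1 h, 0.408 at 16 h and 0.664 with the inhibitor, and in polysome RNA 0.051, 0.112, 0.176 and 0.128. The polysome ratio was 3.42-fold higher at 16 h than in control. With the inhibitor against 16 h, the ratio rose 1.63-fold in cytosolic RNA and fell 1.38-fold in polysome RNA, and each of these 3 differences had the same exact permutation p of 0.0286 (adjusted p = 0.0312). The plot of ratios in each library shows the polysome points moving further than the cytosolic ones from control to 16 h in all 3 pairs. The log2 differences on polysomes and in cytosolic RNA were 1.932 and 0.815 for Stt3a to Stt3b and 1.776 and 0.568 for Sec11c to Sec11a. For Magt1 to Tusc3 they were 3.549 and 2.997. No source used here says how reads shared by related genes were counted.

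**Figure D4:**
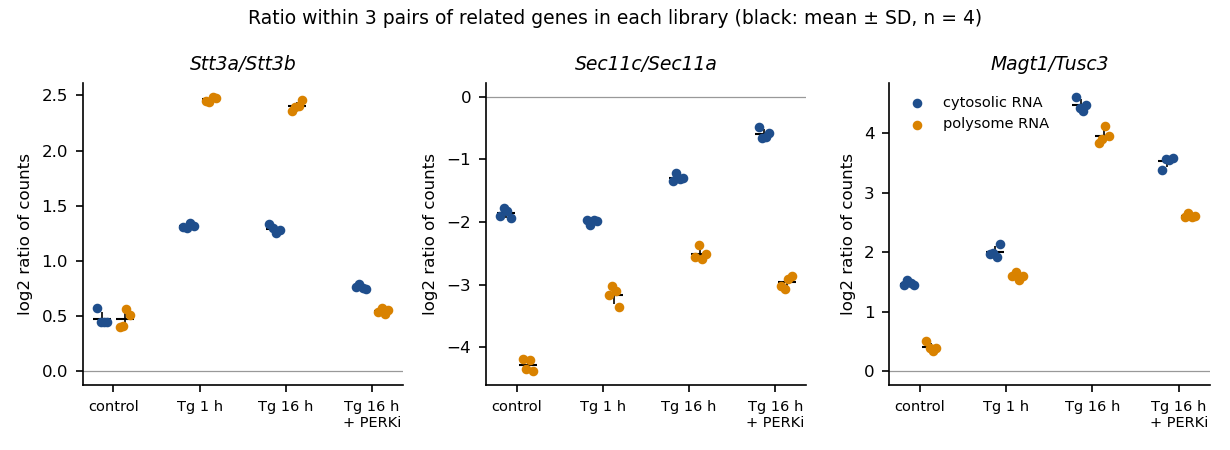
Log2 ratio of the counts of 2 related genes (y axis) in each of 4 libraries per condition (x axis), cytosolic RNA in blue and polysome RNA in orange, with mean and SD in black. The polysome ratio of Stt3a to Stt3b is near 0.5 in control and with the inhibitor and near 2.4 at 1 h and 16 h, and Magt1 to Tusc3 is highest at 16 h in both kinds of RNA.

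The lipid-linked oligosaccharide is built on dolichol by enzymes that act in turn. Dpagt1 adds the first sugar, Alg1 and Alg2 the first mannoses on the outer face, Alg3, Alg9 and Alg12 mannoses inside the ER, Alg5 makes the glucose donor and Alg8 adds a glucose. These were mRNAs of low abundance, with control cytosolic means from 11.97 ± 0.496 (Alg12) to 95.4 ± 8.23 CPM per kb of coding sequence (Alg5; SD, n = 4). In efficiency all 8 fell at both times, with medians of -1.16 at 1 h and -0.97 at 16 h, and 7 rose with the inhibitor, the exception being Alg12, which was not called. Efficiency was called lower for 34.4% of all genes at 1 h and 33.0% at 16 h, and higher for 26.4% with the inhibitor. The medians of all genes were -0.01 at 1 h and -0.04 at 16 h. In cytosolic RNA 7 fell at 1 h, 5 rose and 2 fell at 16 h, and 2 rose and 6 fell with the inhibitor. Among all genes 28.1% were called lower at 1 h, 37.9% higher and 39.4% lower at 16 h, and 42.2% higher and 32.5% lower with the inhibitor. The Alg1 call at 1 h was lost without control sample 2, 3 or 4 or 1 h sample 2 or 4 (-0.296 to -0.244), and that of Alg8 without control sample 1 or 3 or 1 h sample 1 or 3 (-0.208 to -0.146) and with a replicate block (-0.207, adjusted p = 0.052, edgeR's quasi-likelihood test). The Alg3 call with the inhibitor was lost without 16 h sample 3 or 4 or inhibitor sample 2 or 4 (-0.139 to -0.103).

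Alg12 (chromosome 15 from 88805244 to 88819318) had the largest called cytosolic rise at 16 h among the members. Its cytosolic libraries held 16.7, 17.4, 17.2 and 18.4 CPM in control, 17.9, 17.0, 16.1 and 16.8 at 1 h, 57.4, 54.5, 55.2 and 60.4 at 16 h and 37.7, 39.7, 36.7 and 36.9 with the inhibitor. Its polysome libraries held 37.1, 34.2, 33.9 and 35.4 CPM in control, 15.6, 16.3, 14.8 and 15.97 at 1 h, 68.1, 61.6, 67.4 and 62.2 at 16 h and 46.2, 46.1, 45.1 and 46.5 with the inhibitor. Cytosolic RNA at 1 h overlapped control and at 16 h lay far above it, whereas polysome RNA at 1 h lay below every control library. The cytosolic change at 16 h was 1.58 ± 0.0533 (log2, SE; 2.99-fold, adjusted p = 3.76e-14, edgeR's quasi-likelihood test), and the efficiency change at 1 h -1.12 ± 0.0781.

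The promoter of Alg12 is shown because it was the only one examined that holds a complete ER stress response element. RefSeq promoter windows (GRCm38.p6, from 250 bases before to 50 after the start) were found for 27 of the 38 members, and none was found for Tusc3, Sec61a1, Srp19, Tram1, Ostc, Sec11c, Dpagt1, Alg2, Srp68, Spcs3 and Ssr2. On the gene's strand, which is the minus strand of chr15:88819500-88819558, the element spans positions -220 to -202 from the start and is printed in capitals, 5′ to 3′.
Alg12: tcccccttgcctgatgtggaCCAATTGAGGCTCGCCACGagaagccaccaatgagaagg
The element searched was CCAAT, 9 bases, CCACG on either strand, the site that ATF6 binds together with NF-Y, and 0.119% of 32851 windows held it. The related form ATTGG, 1 base, CCACG (0.0365% of windows), the strings TGACGTGG (0.676%) and TGACGTGA (0.441%) and the ATF4 string TTNCATCA (3.97%) were found in none of the members' windows. A match is a description of the letters, and no match says only that they are not in this window.

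The element lies between Alg12 and Creld2, which starts 327 bases away on the other strand and encodes an ER protein induced by stress. This neighbour was looked up after the values of Alg12 were seen. Creld2 changed by -0.28 ± 0.0504 at 1 h, 2.54 ± 0.0515 at 16 h and 0.11 ± 0.0481 with the inhibitor in cytosolic RNA (log2, SE), where Alg12 changed by -0.06 ± 0.0543, 1.58 ± 0.0533 and -0.54 ± 0.0514. Of the other members, Sec61b and Alg2 start 324 bases apart on opposite strands of chromosome 4. At 16 h both rose in cytosolic RNA, and with the inhibitor Sec61b rose by 0.95 ± 0.166 while Alg2 fell by 0.35 ± 0.0568. With a replicate block and the coding-length trend removed, the Sec61b rise was 0.36 and not called (adjusted p = 0.0516, edgeR's quasi-likelihood test). In that comparison all genes of up to 450 nt, the length class of Sec61b, had a median cytosolic change of 0.58. The median of all genes of 901 to 1500 nt, the class of Alg2, was 0.07.

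Alg2 (chromosome 4 from 47465067 to 47474333) was, after Alg12, the enzyme with the largest cytosolic rise at 16 h. Its cytosolic libraries read 79.8, 67.2, 71.8 and 71.5 CPM in control, 51.1, 53.7, 52.9 and 59.2 at 1 h, 228, 195, 201 and 204 at 16 h and 150.1, 163, 152 and 162 with the inhibitor. Its polysome libraries read 195, 196, 208 and 176 CPM in control, 59.4, 63.0, 61.8 and 67.1 at 1 h, 251, 265, 290.4 and 243 at 16 h and 331, 335, 333 and 346 with the inhibitor. All 1 h libraries lay below control and all 16 h libraries above it, in both kinds of RNA. The difference between 16 h and 1 h was 1.82 ± 0.0593 in cytosolic RNA (log2, SE), again as a description.

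Alg5 (chromosome 3 from 54735539 to 54751318) had the largest fall in efficiency of these enzymes at 1 h. Cytosolic libraries held 104.2, 86.1, 88.8 and 91.9 CPM in control, 54.7, 57.3, 54.1 and 53.8 at 1 h, 166, 147, 151 and 157 at 16 h and 102.99, 111, 102 and 100.9 with the inhibitor. Polysome libraries held 237, 244, 263 and 226 CPM in control, 56.0, 53.7, 54.0 and 61.7 at 1 h, 155, 166, 166 and 155 at 16 h and 215, 220.1, 209 and 227 with the inhibitor. At 16 h cytosolic RNA was above control and polysome RNA below it, in every library. Efficiency fell by 1.36 ± 0.0916 at 1 h (adjusted p = 2.32e-10, edgeR's quasi-likelihood test) and by 1.34 ± 0.0898 at 16 h, and rose by 1.01 ± 0.0895 with the inhibitor. Alg1, which shares 472 exonic bases with Eef2kmt on the opposite strand, fell by 1.29 ± 0.131 and 1.55 ± 0.130 in efficiency at the same times.

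The members' coding lengths run from 204 nt (Sec61g) to 2469 nt (Stt3b), and the polysome fraction by its definition holds mRNAs with more than 4 ribosomes. Length classes were drawn after the members' values had been seen and are given as a description. At 1 h the 8 members of up to 450 nt had a median efficiency change of 0.02, the 9 of 451 to 900 nt -0.89, the 12 of 901 to 1500 nt -1.12 and the 9 of 1501 to 2500 nt -0.77. All genes tested had medians of 0.30, -0.32, -0.37 and 0.07 in these classes and 0.74 above 2500 nt, where no member lies. At 16 h the members' medians were 0.05, -1.07, -0.83 and -0.63, beside 0.04, -0.41, -0.33 and 0.15 for all genes. With the inhibitor they were -0.13, 0.69, 0.69 and 0.33, beside -0.20, 0.35, 0.15 and -0.31. The members' medians thus lay below those of all genes of like length above 450 nt at both times, and above them with the inhibitor. Stt3a, at 2115 nt, was above the median of its class at both times and below it with the inhibitor. When the coding-length trend was removed, the efficiency counts were 2 higher and 29 lower at 1 h, 2 higher and 25 lower at 16 h and 23 higher and 3 lower with the inhibitor. Of all 12561 genes tested, 8254, 7713 and 6781 were then called in either direction, in the same order. Their split into higher and lower was not counted.

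**Figure D5:**
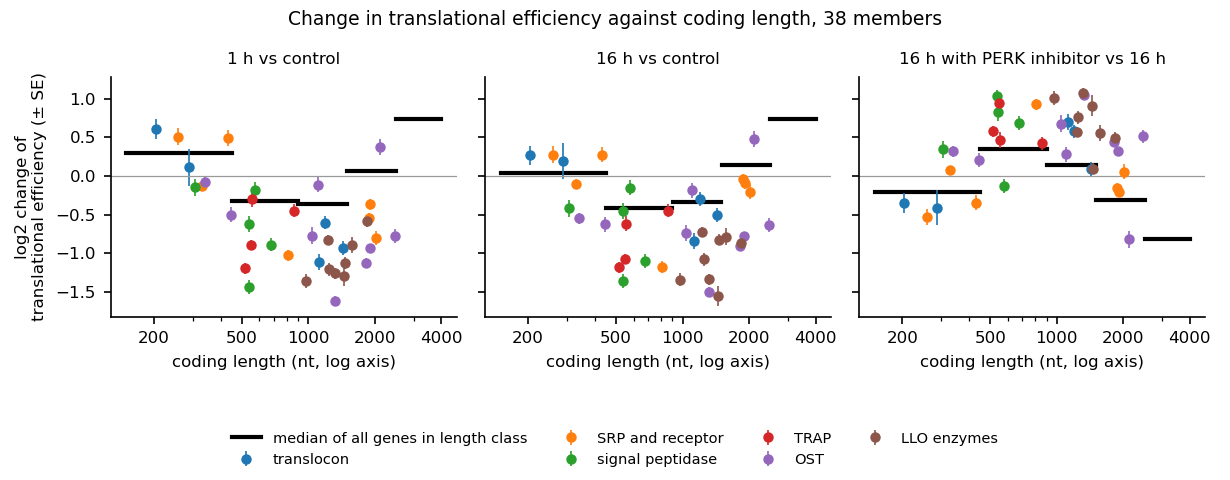
Log2 change in translational efficiency (y axis, SE bars) against coding length (x axis, log scale) of the 38 members, coloured by module, for 1 h and 16 h against control and the inhibitor against 16 h, with the median of all genes tested in 5 length classes as black lines (the last class drawn to the right edge). Members above 450 nt lie mostly below the lines at 1 h and 16 h and above them with the inhibitor, with medians of -1.12, -0.83 and 0.69 in the class of 901 to 1500 nt.

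Other genes of the same route were read from lists chosen for their known roles, with earlier results of these data known. Of 7 further translocon and SRP genes in the table, 4 rose and 3 fell in cytosolic RNA at 16 h, when 37.9% of all genes were called higher and 39.4% lower. Srp54a and Srp54b, near-identical copies of the signal-binding SRP protein whose reads cannot be divided with certainty, rose by 1.36 and 1.38. Tram1l1 and Tram2, relatives of Tram1, fell, with -0.86 and -0.66. Of 4 further genes listed with oligosaccharyltransferase, 1 rose (Tmem258, 0.25) and 2 fell, Mlec (-0.78) and Ost4 (-0.24). Mlec encodes an ER lectin and not a subunit of the enzyme. In efficiency at 1 h, with 33.4% of all genes called higher and 34.4% lower, Ost4, a very small subunit, rose by 1.16 and Krtcap2 fell, with -0.70.

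Of the 15 dolichol and oligosaccharide genes outside the list, 14 were lower in cytosolic RNA at 1 h (28.1% of all genes) and 11 at 16 h (39.4%), when 1 rose (37.9%), and the difference from the members was not tested. Their median change at 16 h was -0.42, beside -0.01 for all genes. Dhdds, a subunit of the enzyme that makes the dolichol chain, rose by 0.67 at 16 h, while Mpdu1 and Dolk, which serve the use and phosphorylation of dolichol, changed by -0.92 and -0.72. Sugar nucleotide supply went the other way, with 10 of 11 genes higher at 16 h in cytosolic RNA (37.9% of all genes), none lower and a median change of 0.74. Gnpnat1 and Gfpt1, which encode enzymes of the hexosamine pathway, rose by 2.03 ± 0.0756 and 1.25 ± 0.0698 (log2, SE). Efficiency of Gfpt1 rose by 1.05 at 1 h, and with the inhibitor its cytosolic and polysome RNA changed by -0.58 and -1.68.

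The lists for parallel routes gave mixed counts. Of 9 ER membrane complex genes, which insert certain membrane proteins, 2 rose and 6 fell in cytosolic RNA at 16 h (37.9% and 39.4% of all genes), Emc2 by 0.87 and Emc10 by -1.51 being the largest of each. In efficiency at 1 h 3 of these 9 rose and 5 fell (33.4% and 34.4% of all genes), from -1.49 (Emc2) to 1.05 (Emc1). Of 5 genes for the insertion of tail-anchored proteins, Asna1 rose by 0.65 and Wrb fell, with -0.97, while 3 were not called. Of 4 genes that trim the transferred sugar tree, none rose and 1, Man1b1, fell, with -0.35. In efficiency at 1 h Ganab, the catalytic subunit of glucosidase II, rose by 1.50 ± 0.0815 and Mogs, glucosidase I, fell by 1.15 ± 0.142.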

How the data were processed

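Whole-number counts of reads per gene, deposited by the authors for 32 libraries as 1 table, were the starting point. Per the submitters' processing notes HISAT, DESeq2 1.9.23 and the build mm10 were used; no source used here gives the counting program, its strand setting, the annotation or the HISAT version. The table held 20234 genes, library totals of 19317276 to 34966246 counts (cytosolic) and 21160092 to 41776027 (polysome), 3234 genes at 0 in every library and no row without a gene. Reads carry no molecular identifiers, so intervals cover counting and sample spread only.

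Cytosolic and polysome RNA were each fitted with edgeR 4.0.16 in R 4.3.3 (TMM factors, a filter with a minimum count of 10, and the robust quasi-likelihood test, adjusted by Benjamini-Hochberg), all 4 conditions entering 1 fit with factors computed within that kind; printed CPM use factors over the 32 libraries. Translational efficiency was the interaction of RNA kind and condition over the 32 libraries, with the sample as a block, as the series' design states that every sample was split. SE is the log2 change divided by the root of F. Ratios within gene pairs were log2 ratios of raw counts in each library, with a prior count of 0.5 added to each gene. They were compared by a two-sided exact permutation test over 70 regroupings. The alternatives were RLE factors, DESeq2 1.42.0, no filter, a replicate block, removal of the trend of counts on coding length (loess, span 0.4) and leaving out each sample. Replicates differed by more than counting noise. Coordinates are from GENCODE M21 (GRCm38).

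The members and lists were chosen with earlier results of these data known. Genes named with every library's value were, per module, the largest called cytosolic change at 16 h and the largest called change in efficiency at 1 h, the 3 largest differences between 16 h and 1 h among members called in opposite directions, and the related pairs. The other lists name up to 2 genes each way with a mean of at least 5 CPM. The fits were also run on simulated counts with a fixed spread, few changed genes, no effect shared within a sample and no coding-length trend. Those settings differ from these data, so that run cannot speak for the calls given here.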

Additional observations from a re-analysis of the deposited data

Results flagged for a closer look

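Of 304 groups of 4 libraries checked, 11 held a library far from the other 3 by Dixon's test at the 95% level, in 8 members, where chance gives about 5%. Among the translocation genes, Srp9 stood at 130 CPM in the cytosolic library of 16 h replicate 1 (the others at 115.14 to 116.95), and Sec11a at 300.4 CPM in the polysome library of inhibitor replicate 1 (the others at 306 to 307). Ssr2 stood at 877 CPM in polysome control replicate 3 (829 to 836) and at 261 CPM in polysome 1 h replicate 4 (241 to 242). Among the oligosaccharyltransferase genes, Rpn1 stood at 638 CPM in cytosolic inhibitor replicate 2 (597 to 599.9) and Stt3a at 1193 CPM in polysome control replicate 3 (989 to 1009). Tusc3 had 3 such libraries: 34.8 CPM in cytosolic 1 h replicate 2 (30.2 to 30.6), 34.2 CPM in cytosolic inhibitor replicate 3 (37.6 to 38.2) and 68.6 CPM in polysome inhibitor replicate 1 (72.6 to 72.8). Among the enzymes, Dpagt1 stood at 84.1 CPM in cytosolic 16 h replicate 2 (91.7 to 92.4) and Alg9 at 80.5 CPM in cytosolic 16 h replicate 1 (72.1 to 73.4).

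In cytosolic RNA 21 members were called lower than control at 1 h and higher at 16 h. Among all genes tested 28.1% were called lower at 1 h and 37.9% higher at 16 h. How many had both calls was not counted, nor how many had opposite calls in polysome RNA. Because the 21 members were picked for opposite calls, the change at 16 h minus that at 1 h is given as a description. The log2 differences were as follows: Sec61g 0.73, Tram1 1.26, Srp19 1.09, Srpr 1.11, Srprb 1.63, Spcs2 1.69, Sec11a 1.33, Sec11c 2.03, Ssr1 1.26, Ssr2 1.09, Ssr3 1.66, Ddost 0.69, Rpn1 0.85, Rpn2 0.42, Stt3b 1.09, Ostc 1.44, Magt1 1.75, Alg2 1.82, Alg3 0.54, Alg5 1.39 and Alg8 0.47. Leaving out single samples ended the call at 1 h for Rpn2 (5 samples) and Alg8 (4) and the call at 16 h for Sec61g (3), and with the length trend removed Srp19 at 1 h was not called (-0.03). In polysome RNA 8 members had such opposite calls, with log2 differences of Sec61a1 1.58, Srp14 0.76, Srp72 1.19, Srpr 1.36, Sec11c 2.05, Magt1 1.66, Alg2 1.94 and Alg12 1.93. The Srp14 call at 1 h, -0.11, was lost in 12 of 16 fits that left out 1 sample (control 1, 2 or 4, 1 h 1, 2 or 3, 16 h 3 or 4 or any inhibitor sample, -0.12 to -0.089), without the filter on low counts (-0.123) and with a replicate block (-0.114). The Magt1 call at 1 h was lost with the length trend removed (-0.06). Both effects are taken against the same control libraries.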

How the results depend on the processing

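Leaving out 1 sample reversed no called change of a member and no median change of the members between conditions. Sign changes of uncalled members were not counted. At 1 h the members' median ratio of polysome to cytosolic RNA minus that of all genes went from 0.011 to -0.01 without 1 h sample 4. The number of members called in a comparison ranged within 28 to 38 in these fits, except efficiency at 16 h against 1 h, with 9 to 15. Single calls of members were gained 45 times and lost 76 times over these fits, against 7175 that stayed. DESeq2 changed 6 of 456 single results, RLE factors 7 and no filter 6, and RLE factors or DESeq2 gave a median of 1.15 for polysome RNA at 16 h against 1 h. Another prior count changed no call among the pair ratios.

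Removing the trend on coding length moved the members' median, without and with the replicate block respectively, to -0.454 and -0.453 in cytosolic RNA at 1 h, 0.02 and 0.021 there with the inhibitor, -1.181 and -1.179 in polysome RNA at 1 h, -0.052 and -0.052 at 16 h, and 0.34 and 0.341 with the inhibitor. The medians of efficiency became -0.542 at 1 h, -0.437 at 16 h and 0.369 with the inhibitor. Direction reversed in cytosolic RNA at 1 h for Srp14 (0.2), and with the inhibitor for Srp9 (-0.162, and -0.157 with the block), Srp14 (-0.145), Srp19 (-0.27 and -0.267) and Sec11a (-0.32 and -0.317). In polysome RNA at 1 h it reversed for Sec61g (-0.323 and -0.32) and Srp68 (-0.151 and -0.15), and at 16 h for Srprb (0.386 and 0.387), Spcs2 (0.21), Ssr1 (0.508) and Ostc (0.014). In polysome RNA with the inhibitor it reversed for Srpr (0.334), Sec11c (-0.063 and -0.061), Rpn1 (0.329 and 0.33), Rpn2 (0.258 and 0.259), Magt1 (-0.122 and -0.121) and Alg8 (0.211 and 0.212), and without the block for Srp14 (0). In efficiency it reversed at 1 h for Sec61g (-0.023), Ssr1 (0.04) and Magt1 (0.288), at 16 h for Sec62 (0.023) and Ssr1 (0.082), and with the inhibitor for Sec61g (0.166), Srpr (0.069) and Ssr1 (-0.009). The cause of these reversals was not tested.

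Replicate numbers shared across conditions did not pair the samples: deviations of same-numbered libraries correlated with a median of 0.01 (-0.37 to 0.51) in cytosolic and -0.01 (-0.30 to 0.37) in polysome RNA, and 3 and 4 of 16 libraries correlated best with their own number. The replicate block gave 29 members called in place of 31 in cytosolic RNA at 1 h and changed 4 of 304 single calls in all. With that block 6809 of all 12366 genes were called in cytosolic RNA at 1 h. For efficiency, deviations of the 2 libraries made from 1 sample correlated with a median of 0.03 (-0.20 to 0.12), and without the block 3 of 152 calls changed. Depth was not varied. The number of samples per condition, 4, limits the precision of every change.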

Other observations

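The annotation places 3 further members head to head with a gene outside the list, and these neighbours were looked up after the members' values had been seen. Idh3g, a subunit of a mitochondrial isocitrate dehydrogenase, starts 130 bases from Ssr4. In cytosolic RNA Idh3g had log2 changes of 0.25 ± 0.0456 at 1 h, 0.31 ± 0.0454 at 16 h and -0.34 ± 0.0453 with the inhibitor (SE), and Ssr4 of -0.88 ± 0.0458, -0.36 ± 0.0452 and 0.50 ± 0.0451. Abhd4, a lipid hydrolase gene, starts 83 bases from Dad1. In cytosolic RNA Abhd4 had log2 changes of 0.16 ± 0.0419 at 1 h, -0.49 ± 0.0421 at 16 h and 0.64 ± 0.0420 with the inhibitor (SE), and Dad1 of -1.27 ± 0.0484, -0.45 ± 0.0473 and 1.20 ± 0.0477. Exosc8, an RNA exosome subunit, starts close to Alg5 on the other strand. In cytosolic RNA Exosc8 had log2 changes of 0.10 ± 0.0490 at 1 h, 0.05 ± 0.0488 at 16 h and 0.10 ± 0.0486 with the inhibitor (SE), and Alg5 of -0.77 ± 0.0539, 0.62 ± 0.0530 and -0.52 ± 0.0529. Exosc8 was called in none of these comparisons, while Alg5 was called in each.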
